A study of Mus musculus with 6 samples.

Results

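Ephrins, semaphorins and their receptors are cell-surface and secreted proteins that steer growing axons and shape synapses. The genes were taken from the deposited expression table by symbol: ephrins (Efna and Efnb), Eph receptors (Epha and Ephb), semaphorins (Sema), plexins (Plxn) and the neuropilins Nrp1 and Nrp2. They numbered 53 of 43346 rows, made up of 8 ephrins, 14 Eph receptors, 20 semaphorins, 9 plexins and 2 neuropilins. Brain RNA was sequenced from 3 Kdm5c-deficient adult males and 3 of their wild-type littermates, also male. All 6 animals came from a heterozygous deficient C57BL/6 mother and a wild-type 129 father, so both groups were a 50:50 mix of these strains. Kdm5c is an X-linked gene whose protein removes methyl groups from lysine 4 of histone H3. The allele, the dissected brain region and whether a library came from a whole brain are not stated by the labels used here.

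As background, ephrin-A ligands are held in the membrane by a lipid anchor and bind mainly EphA receptors, which are receptor tyrosine kinases. Ephrin-B ligands span the membrane, bind mainly EphB receptors, and can signal into their own cell as well. Class 3 semaphorins are secreted and act largely through neuropilins paired with A-type plexins, while semaphorins of classes 4 to 7 stay attached to the membrane and mostly bind plexins directly. In the adult brain the same proteins are known from synapse formation and remodelling, myelin-forming cells and blood vessels.

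Kdm5c itself read 73.9, 65.5 and 78.9 CPM (read counts relative to the scaled library total) in deficient mice 1, 2 and 3 and 77.6, 82.8 and 84.0 CPM in wild-type mice 1, 2 and 3. The groups overlapped and the gene was not called, at a log2 fold change of -0.16 ± 0.07 (SE) at adjusted p = 0.196 in the quasi-likelihood test of edgeR. The counts do not resolve exons, so they cannot test the genotypes given. Libraries held 20221675 to 24555412 counts, and no pair of one genotype agreed within sampling noise. Deficient mouse 2 stood apart from the other mice: the summed level of 15 cerebellar markers, all tested and none at 0, was 968 CPM there and 2305 to 3595 CPM in the other 5 mice. All 15 had log2 fold changes below 0, and none was called by edgeR, DESeq2 or limma-voom. At an unadjusted p under 0.05, 2 (13.3%) were lower, beside 12.8% of all tested genes. Deficient mouse 3 was the highest on another list. Summed markers of newborn neurons and olfactory bulb, 12 tested, were 213, 249 and 328 CPM in deficient mice 1 to 3. In wild-type mice 1 to 3 they were 205, 211 and 221 CPM. The part of these cells in the guidance gene values was not tested. The log2 fold changes of the leading guidance genes are also given without deficient mouse 2.

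Only 3 of the 52 guidance genes that could be tested were called as different between the genotypes. The receptor gene Epha7 was higher in deficient brain, and the receptor gene Epha8 and the semaphorin gene Sema6d were lower. This is 5.77% of the tested members, beside 4.93% of all 15127 tested genes called in either direction (edgeR's quasi-likelihood test, p-values adjusted by Benjamini-Hochberg, threshold 0.05), so the share was near the background. By direction, 1 of 52 was higher beside 2.45% of all genes, and 2 of 52 were lower beside 2.48%. The ephrin gene Efna4 had too few reads to be tested, at 6, 8 and 9 reads in the deficient animals against 9, 8 and 5 reads in the wild-type animals.

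KDM5C acts on a histone mark that is known from active promoters, so the promoters of the 3 called genes are shown, each running from 250 bases before to 50 bases after the annotated start, from RefSeq on GRCm38.p6, 5′ to 3′ on the gene's strand. Binding of KDM5C and methylation of histones were not measured. Capitals mark every match of CCAAT or CACGTG on either strand (CCAAT reads ATTGG on the other strand, and CACGTG reads the same on both), and no match overlapped another. The Epha7 window is chr4:28812881-28813180 on the plus strand.
Epha7: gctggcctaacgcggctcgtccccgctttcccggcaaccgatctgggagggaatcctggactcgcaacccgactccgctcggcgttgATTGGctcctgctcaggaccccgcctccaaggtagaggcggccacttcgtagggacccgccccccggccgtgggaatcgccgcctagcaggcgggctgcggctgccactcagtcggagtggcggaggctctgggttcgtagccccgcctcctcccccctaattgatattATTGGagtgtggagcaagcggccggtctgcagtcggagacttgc
The Epha8 window is chr4:136956767-136957066 on the minus strand.
Epha8: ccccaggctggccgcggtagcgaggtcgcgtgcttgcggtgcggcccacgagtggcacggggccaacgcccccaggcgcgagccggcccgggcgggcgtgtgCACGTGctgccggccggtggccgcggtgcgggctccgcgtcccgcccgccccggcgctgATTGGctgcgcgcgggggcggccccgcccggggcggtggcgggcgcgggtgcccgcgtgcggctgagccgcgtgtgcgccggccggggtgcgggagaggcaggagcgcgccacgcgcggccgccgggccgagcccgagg
The Sema6d window is chr2:124089719-124090018 on the plus strand, at the upstream start of this gene.
Sema6d: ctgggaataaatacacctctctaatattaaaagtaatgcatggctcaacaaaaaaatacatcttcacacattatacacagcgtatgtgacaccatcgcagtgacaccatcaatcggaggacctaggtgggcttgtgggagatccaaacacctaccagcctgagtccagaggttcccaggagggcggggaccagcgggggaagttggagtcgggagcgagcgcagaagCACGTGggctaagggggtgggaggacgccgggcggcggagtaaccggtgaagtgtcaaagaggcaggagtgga
The Epha7 promoter held 2 matches of CCAAT, the Epha8 promoter 1 of CCAAT and 1 of CACGTG, and the Sema6d promoter 1 of CACGTG. Over 32817 promoter windows of 300 bases, 37.4% held CCAAT and 7.1% held CACGTG. Among 47 members with a promoter in the reference, 16 (34.0%) held CCAAT and 3 (6.4%) held CACGTG. The GC box GGGCGG, on either strand and not marked above, was in 36 of the 47 (76.6%) and in 35.6% of all windows. Each member gave only the window nearest its annotated start, and members and all windows were not matched for GC content. These shares are therefore not directly comparable. The Epha8 window had a GC content of 84.3% and 56 CpG dinucleotides, Epha7 67.0% and 28, and Sema6d 54.3% and 14, beside medians of 52.7% and 7 over all windows. Among members that were not called, GC content ran from 41.3% (Sema3a) to 76.3% (Ephb6). Their CpG counts ran from 2 (Sema3a and Sema4d) to 42 (Sema3c), so Epha7 and Sema6d lay within the range of the other members. A match describes the letters only.

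Epha8, which encodes an ephrin-A receptor of the EphA group, showed the largest change of the 52 in either direction. It read 24.1, 13.2 and 21.9 CPM in deficient mice 1, 2 and 3 and 35.6, 33.7 and 35.2 CPM in wild-type mice 1, 2 and 3. The groups did not overlap: the wild-type mice lay close together, and deficient mouse 2 was well below the other deficient mice. The mean was 19.7 ± 5.76 CPM in deficient and 34.8 ± 1.003 CPM in wild-type mice (SD, n = 3 each). Its log2 fold change was -0.83 ± 0.18 (SE) at adjusted p = 0.0391 in the quasi-likelihood test of edgeR, a level 0.563 times that of wild type, with a 95% interval of -1.23 to -0.42 on the log2 scale. Without deficient mouse 2 the log2 fold change was -0.60 (adjusted p = 0.00195 by edgeR). The summed cerebellar markers, at 2836, 968 and 2305 CPM in deficient mice 1 to 3 and 3101, 3272 and 3595 CPM in wild-type mice 1 to 3, were also lower in every deficient mouse and lowest in deficient mouse 2, and their part in the Epha8 values was not tested. In bulk tissue, fewer cells of a type and less RNA per cell cannot be told apart.

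Epha7, another EphA receptor gene and known for truncated forms without the kinase part, went the other way. It read 90.0, 110.2 and 101 CPM in deficient mice 1 to 3 and 79.2, 79.5 and 83.0 CPM in wild-type mice 1 to 3. All 3 deficient mice were above all 3 wild-type mice, with deficient mouse 1 the closest to them. The means were 100.5 ± 10.1 and 80.6 ± 2.08 CPM (SD, n = 3 each), 1.248 times as high in deficient brain, at a log2 fold change of 0.32 ± 0.07 (SE) at adjusted p = 0.0431 by edgeR. Without deficient mouse 2 it was 0.25 (adjusted p = 0.0481 by edgeR). Summed markers of excitatory neurons, given with the marker lists, were likewise highest in deficient mice 2 and 3, and their part in the Epha7 values was not tested. The gene counts do not separate full-length from truncated transcripts.

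Sema6d, a membrane-bound semaphorin known to bind plexin-A1, read 123, 97.4 and 118 CPM in deficient mice 1 to 3 and 146, 153 and 136 CPM in wild-type mice 1 to 3. The deficient mice were all below the wild-type mice, and deficient mouse 2 was again the farthest from them. Means were 113 ± 13.3 and 145 ± 8.58 CPM (SD, n = 3 each), a level 0.776 times that of wild type. The log2 fold change was -0.37 ± 0.09 (SE) at adjusted p = 0.0473 by edgeR, and -0.27 without deficient mouse 2 (adjusted p = 0.0322 by edgeR). The call was lost with libraries scaled by their totals alone, with a filter of a mean of at least 5 CPM, and with offsets for GC content and length (adjusted p = 0.0582 by edgeR for the last).

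**Figure D1:**
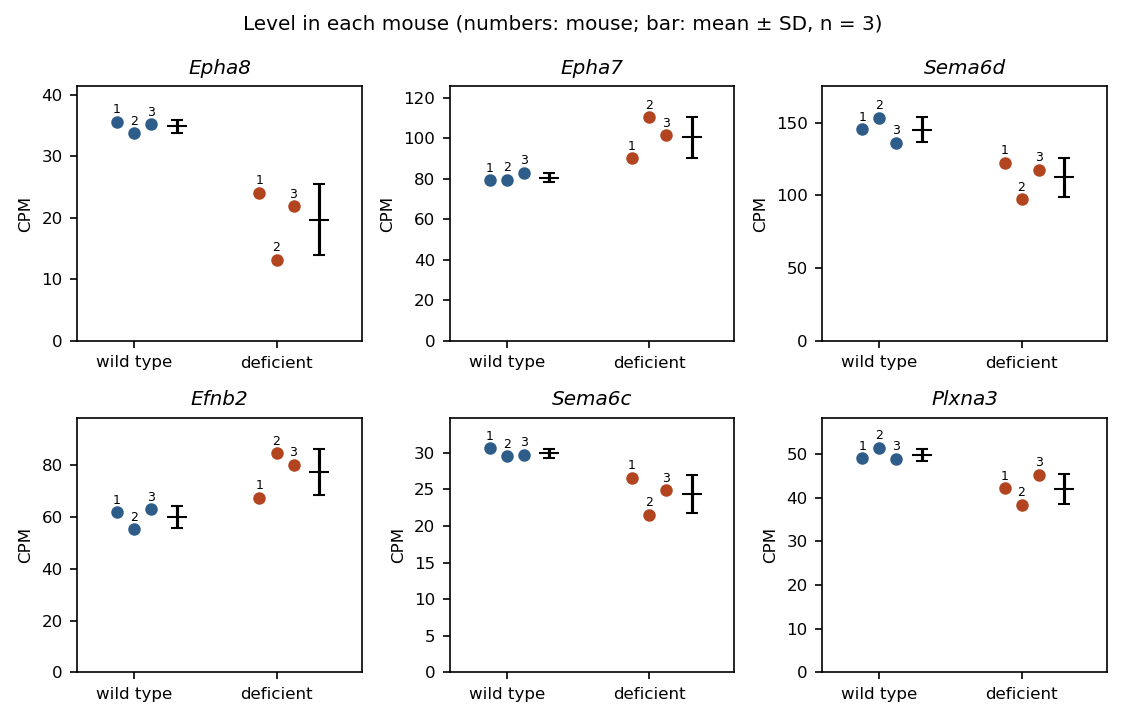
Level in CPM (y axis) in each wild-type and deficient mouse, numbered 1 to 3, for the 6 guidance genes with the smallest p-values, with the mean ± SD (n = 3) beside each group. Epha8, Sema6d, Sema6c and Plxna3 sit lower and Epha7 and Efnb2 higher in all 3 deficient mice, and deficient mouse 2 lies farthest from wild type in each panel.

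These 3 calls depended on which mice were in the fit. All 3 passed without deficient mouse 1 and without deficient mouse 2. None passed without deficient mouse 3 or without wild-type mouse 1, 2 or 3. In these 4 fits the adjusted p ranged from 0.0787 to 0.141 for Epha8, 0.106 to 0.172 for Epha7 and 0.0943 to 0.195 for Sema6d by edgeR. The directions held in all 6 fits, at -0.996 to -0.60, 0.25 to 0.40 and -0.43 to -0.27 on the log2 scale. Without deficient mouse 1, 16 of the 52 members were called (30.8%, beside 13.6% of all tested genes), and no member was called without deficient mouse 3 or any one wild-type mouse (1.01%, 0.289%, 0.346% and 0.648% of all tested genes, in that order). Distance from the wild-type mean was also compared, taken in the direction of the fitted change. Of the 17 members with an unadjusted p under 0.05, deficient mouse 2 was the farthest in 12, deficient mouse 1 in 3 and deficient mouse 3 in 2. Over all 52 tested members these counts were 30, 12 and 10. They were not made over all tested genes. The part of the low cerebellar level of deficient mouse 2 in these values was not tested.

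**Figure D2:**
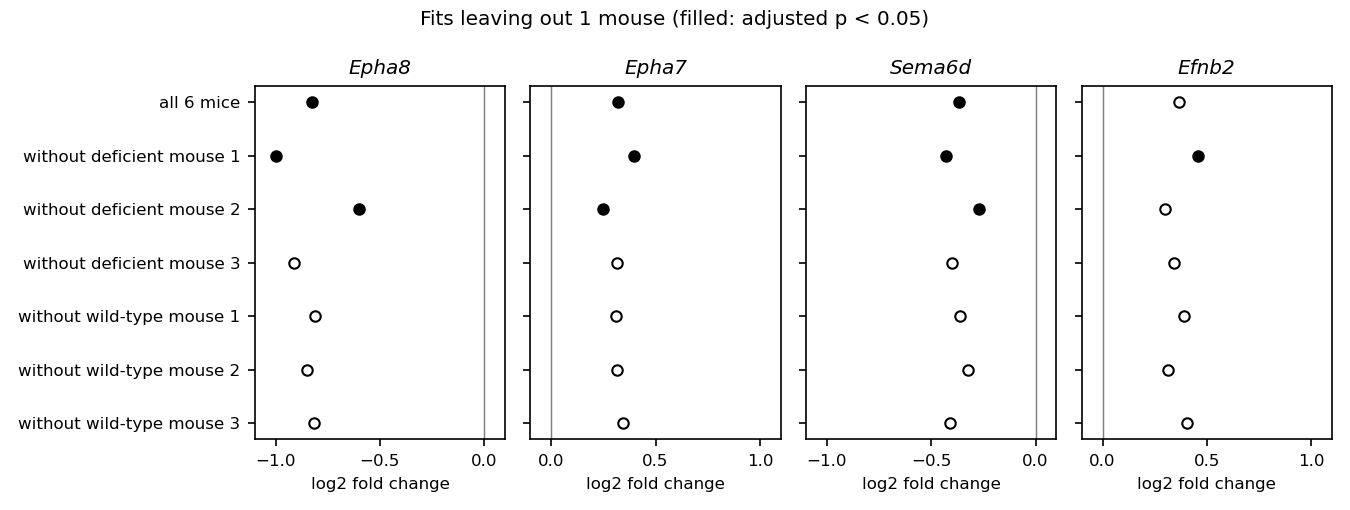
Log2 fold change (x axis) of the 4 guidance genes with the smallest p-values, with all 6 mice and in each fit that leaves out 1 mouse (y axis); filled points have an adjusted p under 0.05. Epha8, Epha7 and Sema6d keep their direction throughout and pass in 2 of the 6 reduced fits, and Efnb2 passes only without deficient mouse 1.

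Set side by side, ligands and receptors both held few calls. Of 27 tested ligands none was higher and 1 was lower, and of 25 tested receptors 1 was higher and 1 lower. DESeq2 called 1 ligand higher and 3 lower, and 2 receptors higher and 1 lower, which is 13.5% of the 52 members beside 7.96% of all tested genes (4.03% higher and 3.93% lower). The counts by limma-voom were those of edgeR, beside 4.65% of all tested genes. At an unadjusted p under 0.05, 17 of the 52 members passed (32.7%), beside 24.9% of all tested genes. Of these, 3 ligands were higher and 5 lower, and 4 receptors were higher and 5 lower, beside 12.1% and 12.8% of all tested genes in these directions. The median log2 fold change was 0.0043 for ligands, 0.05 for receptors and 0.0012 for all tested genes. The genotypes did not overlap for 8 ligands (29.6%) and 5 receptors (20%), beside 30.8% of all tested genes.

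The summed level of the ligands was nevertheless lower in every deficient mouse, at 1321, 1330.3 and 1342 CPM against 1398, 1388 and 1388 CPM in wild-type mice 1 to 3. The summed receptors overlapped, at 1795, 2001 and 1974 CPM in deficient and 1824, 1802 and 1909 CPM in wild-type mice. Both sums weigh the abundant genes most. Among ligands the difference came from the semaphorins, which summed to 1038 ± 19.7 CPM in deficient and 1110 ± 1.87 CPM in wild-type mice (SD, n = 3 each). Sema6d contributed -32.5 and Sema7a -25.0 CPM of the semaphorin difference of -71.5 CPM. Without Sema6d alone the other 19 did not overlap, at 922, 919 and 936 CPM in deficient and 963, 955 and 975 CPM in wild-type mice. Without both genes the remaining 18 semaphorins overlapped between genotypes, at 752, 762 and 770 CPM against 765, 778 and 782 CPM. These 2 genes were picked as the largest contributors in these same data, so their removal narrows the gap by construction. The Eph receptors summed to 760, 926 and 877 CPM in deficient mice 1 to 3 and 792, 742 and 813 CPM in wild-type mice 1 to 3. These overlapped, with deficient mouse 1 below 2 of the wild-type mice, and the means were 854 ± 85.2 and 782 ± 36.4 CPM (SD, n = 3 each). Epha4 (33.7 CPM) and Epha5 (32.0 CPM), neither of which was called, added most to the difference of 72.3 CPM. No test was made on these sums.

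**Figure D3:**
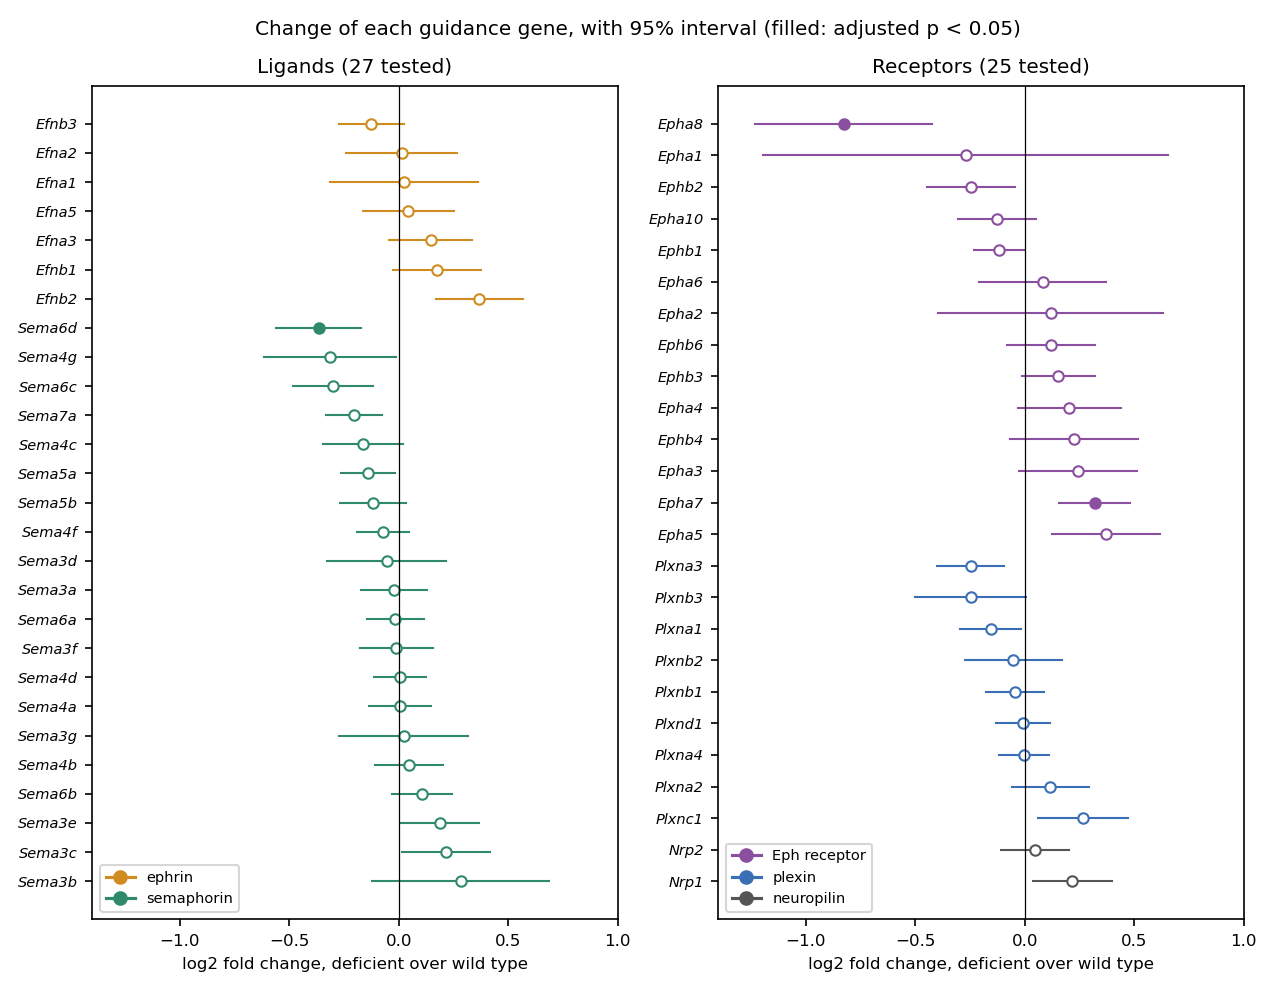
Log2 fold change, deficient over wild type (x axis), with 95% interval for each of the 52 tested genes, ligands at left and receptors at right, ordered within each family; filled points have an adjusted p under 0.05. Most intervals cross or approach 0, and Epha8 lies farthest from it.

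Among the ephrins, none of 7 tested genes was called by edgeR or limma-voom, and DESeq2 called 1 higher. That gene was Efnb2, a transmembrane ligand of EphB receptors and EphA4 that is also known from arteries. It read 67.5, 84.6 and 80.2 CPM in deficient mice 1 to 3 and 61.9, 55.2 and 63.0 CPM in wild-type mice 1 to 3. The genotypes did not overlap, and the gene lay just outside the threshold, at a log2 fold change of 0.37 ± 0.09 (SE) at adjusted p = 0.0501 by edgeR. It was called with median-ratio or upper quartile scaling, without scaling and without a low-count filter, and its value without deficient mouse 2 was 0.30 (adjusted p = 0.0712 by edgeR). The other ephrin-B genes did not pass: Efnb1, on the X chromosome, had 14.4 ± 1.36 CPM in deficient and 12.7 ± 0.281 CPM in wild-type mice (SD, n = 3 each), and Efnb3 had 133 ± 8.39 and 145 ± 9.33 CPM. The 4 tested ephrin-A genes had log2 fold changes between 0.01 and 0.145, with Efna3 at the upper end, and none had an unadjusted p under 0.05.

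Among the 14 Eph receptor genes, Epha5 had the next smallest p after Epha8 and Epha7. Epha5 encodes a receptor of ephrin-A ligands that is known from forebrain maps. It read 116, 157 and 152 CPM in deficient mice 1 to 3 and 110, 102 and 116 CPM in wild-type mice 1 to 3. Deficient mouse 1 fell within the wild-type range, and the log2 fold change of 0.37 ± 0.11 (SE) did not pass (adjusted p = 0.084 by edgeR). It was called by DESeq2 and without a low-count filter, and with deficient mouse 2 left out it was 0.29 (adjusted p = 0.139 by edgeR).

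Epha4, a receptor that binds both ephrin classes, read 218, 294 and 261 CPM in deficient mice 1 to 3 and 229, 205 and 238 CPM in wild-type mice 1 to 3. The groups overlapped, at 0.20 ± 0.10 (SE) on the log2 scale (adjusted p = 0.263 by edgeR). Without deficient mouse 2, which was the highest, the value was 0.10. Among the EphB genes Ephb2, whose protein is known from the postsynaptic side of excitatory synapses, had 38.2, 30.1 and 32.9 CPM in deficient mice and 41.0, 37.5 and 41.2 CPM in wild-type mice. These overlapped by deficient mouse 1 (log2 fold change -0.25 ± 0.09, SE, adjusted p = 0.134 by edgeR), and without deficient mouse 2 the value was -0.17. Ephb6, which lacks kinase activity, had 112 ± 13.1 and 103 ± 8.16 CPM (SD, n = 3 each) and was not called, at a log2 fold change of 0.12 that was 0.03 without deficient mouse 2.

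Epha8 and Ephb2 lie near each other, with other genes between them. On GRCm38, Epha8 runs from 136929419 to 136956816 and Ephb2 from 136647539 to 136835988 on chromosome 4, both on the minus strand and 93.4 kb apart. Both were at lower mean levels in deficient brain, though only Epha8 passed. The microglia markers C1qb, C1qc and C1qa lie between them and were at higher means. Their log2 fold changes were 0.13, 0.17 and 0.23, with none called by edgeR. Epha7 also lies on chromosome 4, far from them, at 28813131 to 28967499, and Sema6d on chromosome 2 at 124089969 to 124667770. Only 3 other adjacent pairs of members lay within 200 kb of each other: Efna1 with Efna3, Efna3 with Efna4, and Sema3b with Sema3f. The log2 fold changes were 0.02 for Efna1 and 0.145 for Efna3, and 0.28 for Sema3b and -0.01 for Sema3f, with none called.

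Of the 20 semaphorins, only Sema6d was called by edgeR and limma-voom, and DESeq2 added Sema6c and Sema7a, also lower. Sema7a, the lipid-anchored class 7 semaphorin that binds plexin-C1 and integrins, read 169.6, 157 and 166 CPM in deficient mice 1 to 3 and 197, 177 and 193 CPM in wild-type mice 1 to 3. The deficient mice were all below the wild-type mice, by a small margin. The log2 fold change was -0.20 ± 0.06 (SE) at adjusted p = 0.0751 by edgeR, with a 95% interval of -0.33 to -0.08, and was -0.17 without deficient mouse 2. Sema6c, a close relative of Sema6d, read 26.6, 21.6 and 24.9 CPM in deficient mice and 30.6, 29.5 and 29.7 CPM in wild-type mice. It did not pass (log2 fold change -0.30 ± 0.08, SE, adjusted p = 0.0674 by edgeR), and was at -0.22 without deficient mouse 2.

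The remaining class 6 genes did not follow Sema6d: Sema6b had 144 ± 9.39 CPM in deficient and 134 ± 6.40 CPM in wild-type mice (SD, n = 3 each), a log2 fold change of 0.11 that was 0.05 without deficient mouse 2. Sema6a had a log2 fold change of -0.02, and 0.01 without that mouse. Sema5a, a semaphorin with thrombospondin repeats, had 98.0 ± 5.40 and 108 ± 3.17 CPM (SD, n = 3 each), without overlap between genotypes and without passing (log2 fold change -0.14 ± 0.05, SE, adjusted p = 0.15 by edgeR). None of the 7 secreted class 3 genes was called by edgeR, DESeq2 or limma-voom, and 2 of them, Sema3c and Sema3e, were higher at an unadjusted p under 0.05. Sema3a, the best-known repellent of the class, was at 24.2 ± 1.43 and 24.6 ± 0.723 CPM (SD, n = 3 each), with a 95% interval of -0.17 to 0.13 on the log2 scale.

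Some further members had values that ran with those of marker genes. Sema4g read 65.4, 42.4 and 56.7 CPM in deficient mice 1 to 3 and 63.8, 71.5 and 69.4 CPM in wild-type mice, and its lowest value was in the mouse with the low cerebellar markers. Its log2 fold change of -0.32 with all mice was -0.16 without deficient mouse 2 (adjusted p = 0.185 and 0.26 by edgeR). The plexin gene Plxnb3, known from oligodendrocytes, read 45.1, 35.0 and 35.0 CPM in deficient and 44.4, 50.8 and 41.5 CPM in wild-type mice. Beside it, 15 oligodendrocyte markers, all tested, summed to 7545, 6188 and 5986 CPM in deficient and 8345, 8708 and 7699 CPM in wild-type mice. Of these markers 4 were called lower by edgeR, beside 2.48% of all tested genes. The part of oligodendrocytes in the Plxnb3 values was not tested. The semaphorin gene Sema4d, also known from oligodendrocytes, was level between the genotypes, at 66.5, 68.2 and 68.6 CPM in deficient and 63.6, 70.3 and 68.8 CPM in wild-type mice.

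None of the 9 plexin genes was called by edgeR, DESeq2 or limma-voom, with 1 higher and 2 lower at an unadjusted p under 0.05. Plxna3, an X-linked plexin that works with neuropilins, had the smallest p. It read 42.2, 38.4 and 45.3 CPM in deficient mice 1 to 3 and 49.0, 51.5 and 49.0 CPM in wild-type mice 1 to 3. All deficient mice were lower, and the log2 fold change was -0.25 ± 0.07 (SE) at adjusted p = 0.0691 by edgeR, and -0.19 without deficient mouse 2. Plxna1, a partner of Sema6d, had 73.7 ± 4.46 and 82.1 ± 4.39 CPM (SD, n = 3 each), also without overlap and not called (-0.16 ± 0.06, SE, adjusted p = 0.16 by edgeR). Its exons overlap an antisense gene, so its reads are uncertain to that extent.

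Plxnc1, the plexin partner of Sema7a, read 73.8, 95.2 and 88.0 CPM in deficient and 67.3, 70.7 and 76.1 CPM in wild-type mice. Deficient mouse 1 overlapped the wild-type range, and the gene was not called (0.26 ± 0.09, SE, adjusted p = 0.12 by edgeR), with a value of 0.18 without deficient mouse 2. Sema7a and Plxnc1 thus had mean levels on opposite sides of wild type, neither past the threshold, while Sema6d and Plxna1 were both at lower means. Plxna2, the most abundant plexin per kilobase, was at 204.5 ± 20.9 and 189 ± 10.2 CPM, and Plxnb1, a receptor of Sema4d, at 135 ± 9.63 and 139 ± 2.44 CPM (SD, n = 3 each). Plxna4 and Plxnd1 were the closest to no change, at log2 fold changes of -0.0036 and -0.0091 with 95% intervals of -0.12 to 0.11 and -0.13 to 0.11. With offsets for GC content and length they were 0.08 and 0.02, on the other side of 0.

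The neuropilins, the ligand-binding co-receptors of class 3 semaphorins, were not called by edgeR, DESeq2 or limma-voom. Nrp1 read 40.5, 50.7 and 46.6 CPM in deficient mice 1 to 3 and 39.3, 38.6 and 40.7 CPM in wild-type mice 1 to 3. Its lowest deficient value lay just inside the wild-type range (log2 fold change 0.22 ± 0.08, SE, adjusted p = 0.142 by edgeR), and its value without deficient mouse 2 was 0.14. Nrp2 was at 60.1 ± 5.60 and 58.3 ± 1.21 CPM (SD, n = 3 each), a log2 fold change of 0.05 that was -0.03 without deficient mouse 2.

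For the 49 tested members that were not called, the intervals show how large a change could have been missed. The 95% interval of the fold change lay within 1.5-fold of wild type in either direction for 44 of them and within 2-fold for 48. The exception was Epha1, with 6 to 19 reads a mouse and an interval of -1.20 to 0.66 on the log2 scale.

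Levels differed far more between members than between genotypes. On the scale of CPM per kilobase of the longest annotated transcript, averaged over the 6 mice, Sema7a was highest at 53.6, followed by Efnb3 at 43.7, Epha4 at 38.0, Sema6b at 37.1 and Ephb6 at 28.6. Sema6d was at 19.995, Efnb2 at 14.3 and Epha7 at 13.4, in the upper part of their families, and Epha8 was lower at 5.79. Plexins ranged from 6.61 for Plxna3 to 17.8 for Plxna2. Epha2 at 0.290, Epha1 at 0.221 and Efna4 at 0.209 were the lowest. Medians per kilobase were 5.85 for the 27 tested ligands and 10.8 for the 25 receptors.

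**Figure D4:**
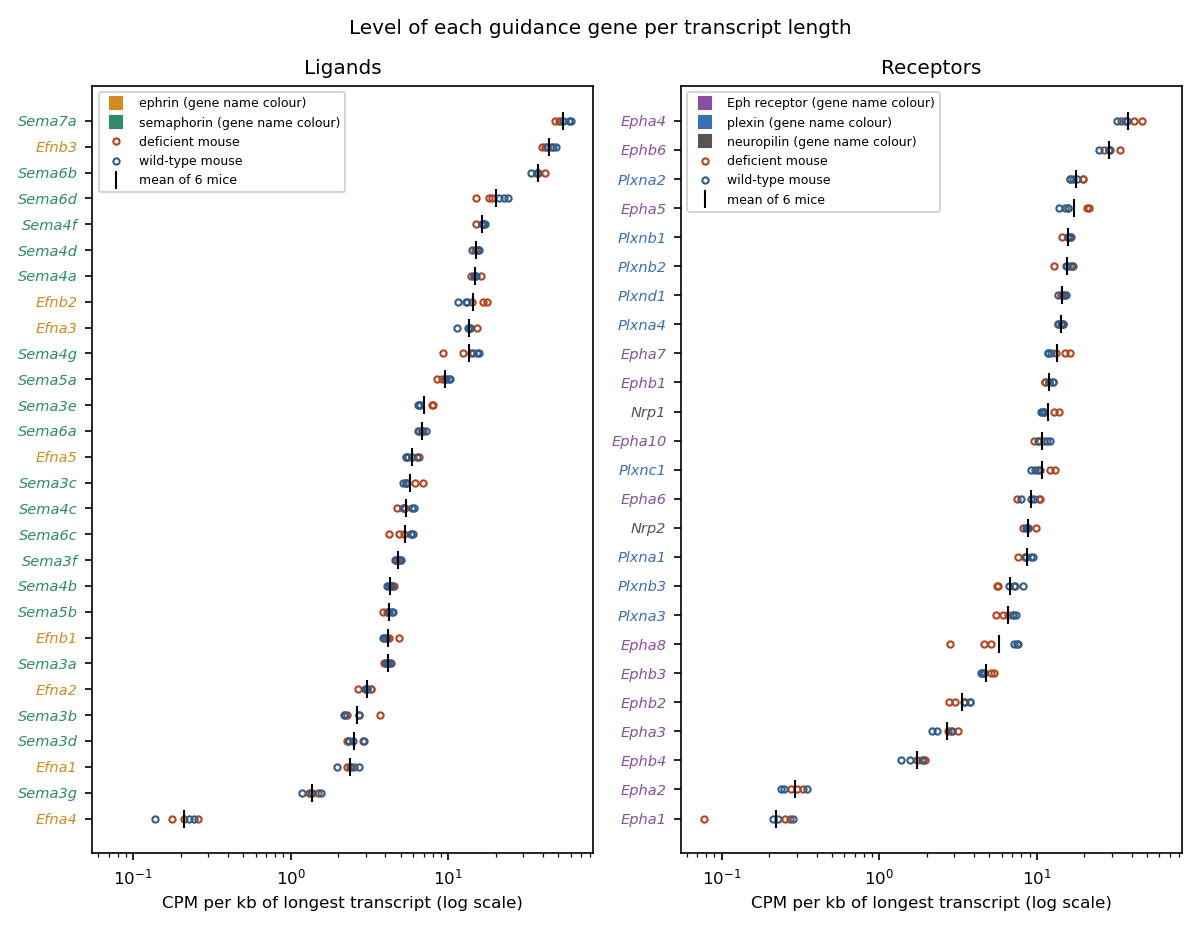
Level in CPM per kilobase of the longest transcript (x axis, log scale) of all 28 ligands and 25 receptors, ordered by their mean; circles are single mice and the bar is the mean of the 6. The range over genes, from about 0.209 for Efna4 to 53.6 for Sema7a, is far wider than the spread of mice around any 1 gene's mean except for the lowest genes.

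Transcript GC content differed between the members at higher and lower levels. Over the 7 members higher at an unadjusted p under 0.05 the median GC content of the longest transcript was 42.01% (range 40.08 to 50.45%), and over the 10 lower members 56.31% (45.87 to 61.47%). Across the 52 tested members the Pearson correlation of GC content with log2 fold change was -0.42 and the Spearman correlation -0.359. Across 14979 tested genes with an annotation they were 0.092 and 0.086. These are descriptions across genes of the same 6 libraries, and genes are not independent replicates. With per-library offsets for GC content and length the Pearson correlation was -0.504 over the members and 0.021 over all tested genes with an annotation. With these offsets Epha8 (-0.84, adjusted p = 0.0375) and Epha7 (0.38, adjusted p = 0.028) kept their calls by edgeR.

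**Figure D5:**
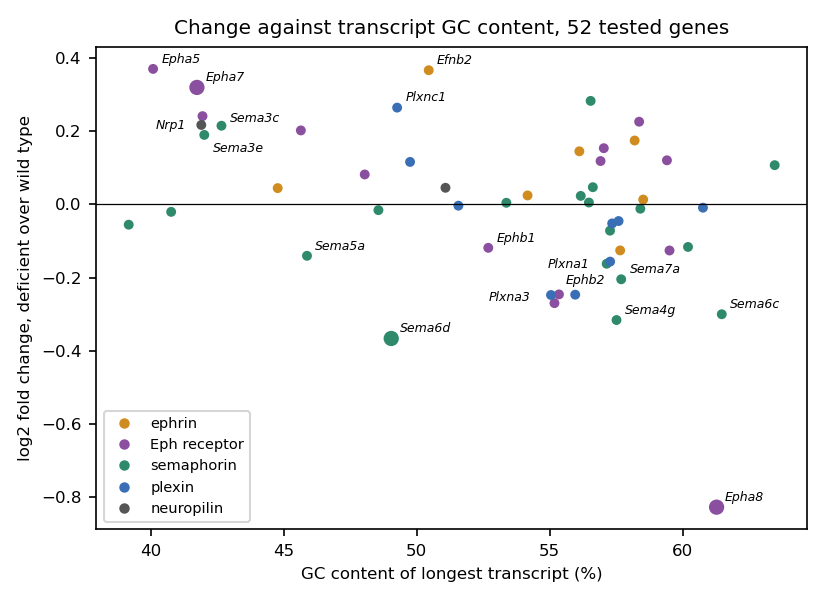
Log2 fold change (y axis) against the GC content of the longest transcript in percent (x axis) for the 52 tested genes, coloured by family; large points have an adjusted p under 0.05 and names mark an unadjusted p under 0.05. Members above 0 with a name have a GC content of at most 50.45%, while all but Sema5a, Sema6d and Ephb1 of those below 0 lie at 55% or more.

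Genes listed as partners of these receptors inside the cell or beside them held few calls. Of 30 listed partners of Eph receptors and ephrins 29 were tested, and none was called by edgeR or limma-voom (4, or 13.8%, at an unadjusted p under 0.05, and 1 higher by DESeq2), beside 4.93% of all tested genes called by edgeR and 24.9% at an unadjusted p under 0.05. Those with the smallest p were Nck2, an adaptor protein of ephrin-B signalling, and Rin1, a guanine nucleotide exchange factor known from EphA4 uptake. Nck2 had 33.1 ± 1.97 CPM in deficient and 28.5 ± 0.809 CPM in wild-type mice, and Rin1 59.8 ± 9.63 and 46.8 ± 3.51 CPM (SD, n = 3 each). Of 32 listed partners of plexins and neuropilins 30 were tested, 8 (26.7%) had an unadjusted p under 0.05 and 1 was called, Plxdc1. It encodes a transmembrane protein with a plexin-like domain and is named for that domain. Whether it acts with plexins or neuropilins was not tested here. Plxdc1 read 32.1, 24.1 and 28.5 CPM in deficient mice 1 to 3 and 41.1, 41.1 and 40.9 CPM in wild-type mice 1 to 3. The groups did not overlap, with means of 28.2 ± 3.97 CPM in deficient and 41.0 ± 0.092 CPM in wild-type mice (SD, n = 3 each) and a log2 fold change of -0.54 ± 0.09 (SE) at adjusted p = 0.0228 by edgeR. Like the members, it passed in 2 of 6 fits with 1 mouse removed, with values from -0.64 to -0.44. The summed cerebellar markers were likewise lowest in deficient mouse 2, and their part in the Plxdc1 values was not tested. The median log2 fold change was 0.05 for the first list and 0 for the second.

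The other marker lists placed the tissue as brain, with no marker at 0 in all mice. Counting tested genes, 1 of 12 markers of newborn neurons and olfactory bulb, 2 of 11 of microglia and 1 of 10 of astrocytes were higher, and 1 of 8 of meninges was lower. DESeq2 called 2, 4 and 4 markers of the first 3 of these lists higher, 1 of meninges lower and 6 of oligodendrocytes lower. Over all tested genes edgeR called 2.45% higher and 2.48% lower, and DESeq2 called 4.03% higher and 3.93% lower. None of 13 vascular, 8 excitatory neuron and 7 striatal markers was called by edgeR or limma-voom. By DESeq2, 1 vascular and 2 excitatory neuron markers were higher. At an unadjusted p under 0.05 these lists held 4 (30.8%), 5 (62.5%, 4 higher and 1 lower) and 0, beside 24.9% of all tested genes. Excitatory neuron markers summed to 3784, 5157 and 4704 CPM in deficient mice 1 to 3 and 3651, 3408 and 3966 CPM in wild-type mice 1 to 3. Deficient mice 2 and 3 were the highest for these markers, as they were for Epha7, Epha5, Epha4, Plxnc1, Nrp1 and Efnb2, and the part of such cells in those values was not tested.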

How the data were processed

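RNA was sequenced from brain of 3 Kdm5c deficient and 3 wild-type mice. Per the labels' protocols, RNA came from Qiagen RNeasy columns and went into Illumina TruSeq RNA libraries. Per the submitters' processing notes, DESeq2 and GRCm38 were used; aligner, counting program and strandedness were not given in the sources used here. The deposited table holds raw counts per gene symbol, which the authors did not normalize. The authors also deposited a mean signal, a log2 fold change with its error, a test score and a p-value, not adjusted, for each gene, which were not used.

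The analysis used edgeR 4.0.16 and limma 3.58.1 under R 4.3.3. The default expression filter (minimum count 10, minimum total 15) left 15127 genes with at least 99.94% of each library's counts. After scaling by trimmed means of M-values, a quasi-likelihood test compared the genotypes with no other term in the model, with Benjamini-Hochberg adjustment over all tested genes and a threshold of 0.05. Intervals of fold changes used the error from the F statistic, and no batch is recorded in the labels. The labels do not say whether same-numbered mice share a litter, and p-values measure the spread between these mice.

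Positions, lengths and GC content came from GENCODE M21 on GRCm38 by symbol. Exons of 11 members overlap a gene on the opposite strand and those of 3 a gene on the same strand (Nrp1, Plxnc1 and Sema4a), so their reads are uncertain to that extent; the called members have no such overlap. Promoters came from RefSeq, and 47 of 53 members matched. On data simulated for this comparison with 15127 genes, the test recovered 26% of the genes with a 1.25-fold change, 64% of those with a 1.5-fold, 88% of those with a 2-fold and 98% of those with a 4-fold change, and 14 of 152 calls were of unchanged genes. The simulated counts were drawn independently for each gene. These shares therefore do not cover shifts of many genes together in a mouse, such as those of deficient mouse 2.

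The members, the partner lists and the marker lists were chosen with earlier results of these data known. Named genes are Kdm5c, members past the threshold, in each of 4 groups (ephrins, Eph receptors, semaphorins, plexins with neuropilins) the 4 smallest p-values and the 2 highest levels per kilobase, both neuropilins, untested members and the leading partners. Other genes were named after their values were seen. Alternatives were other scalings, filters and thresholds, DESeq2 1.42.0, limma-voom, offsets for GC content and length, the replicate number as a block and leaving out each mouse.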

Additional observations from a re-analysis of the deposited data

How the results depend on the processing

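Counts of genes called lower or higher over the whole table, and of guidance genes, varied with the setting. Over all tested genes, 371 were higher and 375 lower. These counts were 558 and 563 with no low-count filter, 611 and 597 with DESeq2 over all genes it tested (609 and 595 among the 15127), 857 and 935 at an adjusted p under 0.1, 49 and 9 with the replicate block, and 41 and 7 with the block together with GC and length offsets. Leaving out 1 mouse gave 38 to 1101 higher and 6 to 997 lower genes. Among ligands, 1 was higher, where none had been, with median-ratio, upper quartile or no scaling, no filter, DESeq2 or an adjusted p under 0.1. The count of lower ligands went from 1 to 0 without scaling, with a filter of a mean of 5 CPM, with GC and length offsets, with the replicate block and with both of these, and to 3 with DESeq2 or an adjusted p under 0.1. Among receptors, 2 were higher in place of 1 with no filter, DESeq2 or an adjusted p under 0.1, and 2 were lower at that threshold. With the replicate block, with or without the offsets, 0 receptors were higher and 0 lower. Without 1 mouse, 0 to 3 ligands were higher and 0 to 4 lower, and 0 to 6 receptors were higher and 0 to 3 lower.

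The median log2 fold change without 1 mouse ran from -0.0363 to 0.0196 for ligands and from 0.0083 to 0.10 for receptors. Of the named genes, Plxnb1 turned from -0.05 to 0.0045 with GC and length offsets, to 0.0034 with the offsets and the replicate block, and ran from -0.0895 to 0.0097 over the fits without 1 mouse, while Nrp2 ran from -0.031 to 0.104 over these. Over the named genes and the alternatives that kept all mice, 237 values kept their direction and side of the threshold, 10 gained a call, 11 lost one and 2, both Plxnb1, turned. Correlations of the deviations of same-numbered mice were -0.061, -0.054 and 0.141, and only the mice numbered 3 correlated best with their own number. With 3 mice per genotype these values cannot tell whether the replicate numbers pair the mice. The cause of these changes was not tested, except that fits without a mouse or with a block have fewer degrees of freedom by construction. Epha8, Epha7, Sema6d and Plxdc1 all lost their calls with the replicate block (adjusted p = 0.0834, 0.0934, 0.117 and 0.0741 by edgeR). Depth limits Epha1, Epha2 and Efna4.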

Other observations

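Acp1, which encodes a small tyrosine phosphatase that acts on Eph receptors and was named after its values were seen, split the mice without regard to genotype. It was at 16.0 CPM in deficient mouse 2 and 16.0 CPM in wild-type mouse 2, and at 7.05, 7.04, 6.72 and 5.77 CPM in deficient mice 1 and 3 and wild-type mice 1 and 3. Its exons overlap those of Alkal2 on the opposite strand. The Rac regulator gene Chn2, of the same list, was at 19.6 CPM in deficient mouse 2 and at 59.3 to 94.9 CPM in the other 5 mice, so its lowest value was in the mouse with the lowest cerebellar markers.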
